A study of Mus musculus with 18 samples.

Results

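Prominin-1 (CD133), the product of Prom1, sits in the membrane protrusions of epithelial cells, and in liver tumours it serves to mark cells that resemble progenitors. The data described here are the bulk RNA-seq libraries of DEN+CCl4 tumours in which the Prom1-expressing cells had been targeted for killing, against their controls. They are 6 of the 18 samples of the series, which holds 12 bulk libraries and 6 single-cell samples, and they were chosen by their labels alone: 3 libraries labelled control (replicates 7, 8 and 13) and 3 labelled Prom1 depletion (replicates 6, 9 and 10). All genes of the count table were considered.

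The 6 tumours were hepatocellular carcinomas induced by a carcinogen, N-nitrosodiethylamine (DEN, 1 mg/kg, at an age of 14 days), and by repeated liver injury with CCl4 (carbon tetrachloride at 0.2 ml/kg, begun at 8 weeks of age and kept up for 12 to 16 weeks). The strain label is the same in both groups, Prom1C-L/+;Rosa26DTA/+. It stands for 1 Prom1 allele that carries a tamoxifen-activated Cre recombinase (CreERT2) with LacZ, so that Cre is made wherever the Prom1 promoter is active, and 1 Rosa26 allele from which Cre switches on diphtheria toxin A. The series' design text names littermates without the Prom1 knock-in (Prom1+/+;Rosa26DTA/+) as controls and also a vehicle, olive oil. Which of these applies to each control library is not settled by the labels, so the knock-in and the tamoxifen cannot be told apart from the loss of cells. Tamoxifen was given in 4 mg doses on alternate days once tumours had formed, and tissue was taken 16 days after the last dose. The labels give no sex, litter or batch and do not say that replicates are separate animals, so p-values measure the spread between these samples, which may be technical.

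Diphtheria toxin A stops protein synthesis in the cell that makes it and kills that cell without harming its neighbours. In the liver, Prom1 marks bile duct cells and, after injury, the duct-like progenitor cells that spread from the portal tracts, as well as a minority of tumour cells. A library from whole tumour tissue also holds RNA of hepatocytes, vessels, stellate cells and leukocytes, and in such bulk samples fewer cells of a type and less RNA per cell cannot be told apart.

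Total counts per library were 36336745 to 43130284 in the controls and 31306617 to 39840156 after depletion. Depletion 6 stood apart from the other 5 libraries: on the first principal component of the 6 (49.25% of the variance) it lay at 89.76, against 15.56 and 2.69 for depletion 9 and 10 and −38.18 to −33.35 for the controls. Mitochondrially encoded RNA took 5.634% to 6.064% of the counts in controls and 7.891% to 8.238% after depletion, and 24 of 30 ribosomal protein genes were higher in every depletion library than in every control, none past the test. A ribosomal RNA sequence took 3.022% to 12.391% of control counts and 2.305% to 5.061% of depletion counts. Y-linked transcripts were present in all 6 libraries, with sums of 154.3 to 157.9 CPM (counts scaled to 1000000 per library, with library sizes adjusted by TMM factors) in controls and 170.0 to 180.9 CPM after depletion. Transcripts of X inactivation were low, with sums of 0.2136 to 0.3033 CPM in controls and 0.8008, 2.299 and 0.1542 CPM in depletion 6, 9 and 10. The part of these library properties in the results below was not tested. Transcripts of hepatocytes were abundant in every library, with Apoa1, a protein of plasma lipoproteins, at 13985 to 15621 CPM in controls and 8273 to 10889 CPM after depletion.

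Prom1 itself (ENSMUSG00000029086.15, on the minus strand of chromosome 5 at 43993620 to 44102032 in GRCm38) had levels of 60.1, 76.7 and 48.9 CPM in controls 7, 8 and 13 and of 17.4, 40.0 and 35.7 CPM in depletion 6, 9 and 10. Values are given in this library order throughout. The groups did not overlap, and depletion 6 had the lowest level. The log2 difference of −0.99 (SE 0.57) did not pass the edgeR quasi-likelihood test (adjusted p = 0.381), and the targeted transcript was still detected after depletion. Bile duct markers, the normal site of Prom1 in liver, had a median log2 difference of −0.49 over 15 genes, 4 of them lower in every depletion library, none past the test; without depletion 10 it was −1.12, and −0.33 without depletion 6. The secreted matrix protein Spp1, a bile duct marker (287, 465 and 158 CPM against 11.0, 126 and 79.9 CPM) and the surface protein Ly6d, a tumour and progenitor marker (186, 284 and 134 CPM against 5.19, 60.0 and 96.4 CPM) were lower in every depletion library without passing (edgeR adjusted p = 0.25 and 0.205).

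In the whole comparison, NF-kB genes and a chemokine rose, and genes of antigen presentation to CD8 T cells, interferon-induced GTPases and glutathione synthesis were among those that fell. In all, 63 of 17013 genes passed the test at an adjusted p under 0.05 (0.37% of genes tested), 19 higher (0.112%) and 44 lower (0.259%). At an unadjusted p under 0.05 there were 3186 genes (18.7%). Of the 63, 38 changed by more than 1 on the log2 scale and 13 by more than 2, and all 63 code for proteins. None of the 63 had overlapping groups, against 27.5% of all genes tested without overlap, 11.5% above and 16.0% below the controls. The gap between the nearest libraries of the groups ran from 1.231-fold to 8.051-fold. Depletion 6 was farthest from the controls for 38 of the 63 genes, depletion 9 for 16 and depletion 10 for 9. The plot of fold change against mean level shows these genes among many others with equal or larger differences that did not pass.

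**Figure D1:**
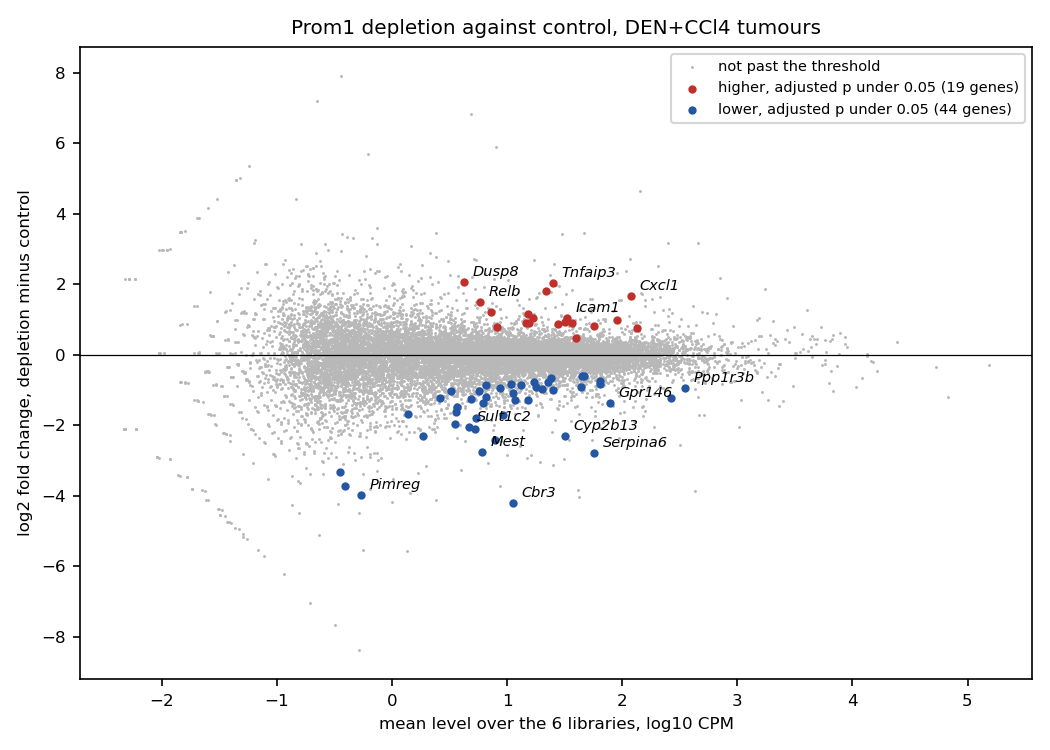
Each point is 1 of the genes tested that had counts in these 6 libraries, placed by its mean level over them (log10 CPM) and its log2 fold change, depletion minus control. The 19 genes that rose (red) and the 44 that fell (blue) lie between 0.48 and 2.06 above and between −4.21 and −0.60 below 0, inside a wider cloud of genes that did not pass the test (grey).

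The count rests on single libraries. Without control 7 it fell to 3 genes and without control 8 to 2; it was 31 without control 13, 10 without depletion 6, 6 without depletion 9 and 459 without depletion 10. The calls of 2 genes, Gpr146 and Sult1c2, were kept with each library left out. Gpr146 (ENSMUSG00000044197.8, chromosome 5, 139377697 to 139396415), an orphan G-protein-coupled receptor of hepatocytes known for its part in blood cholesterol, was at 122, 112 and 105 CPM in controls and at 41.0, 45.2 and 44.2 CPM after depletion. Both groups were tight and far apart. The log2 difference was −1.38 (SE 0.12, edgeR adjusted p = 0.00118), and its adjusted p lay between 0.00529 and 0.0134 with 1 library left out. Sult1c2, a cytosolic sulfotransferase, was at 8.29, 7.06 and 7.09 CPM in controls and at 1.46, 2.18 and 1.73 CPM after depletion, a log2 change of −2.06 (SE 0.21, adjusted p = 0.00479). Next came the histone deacetylase Hdac11 (21.6, 24.0 and 24.5 CPM against 13.7, 10.6 and 13.1 CPM), whose call ended without control 8 (adjusted p = 0.0526) and with no other library left out. In a fit of the 6 libraries alone 21 genes passed, 14 of them among the 63. DESeq2 called 1066 genes, all 63 included, limma-voom 71, with 46 of the 63, and edgeR without a filter on low counts 171.

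NF-kB is a family of transcription factors that drives inflammatory genes. In the classical branch, inhibitor proteins hold the factor in the cytoplasm until kinases mark them for destruction; in the alternative branch, the subunit Relb pairs with the processed product of Nfkb2. Several inhibitors, among them Tnfaip3 (A20), are themselves induced and close the loop. Of the called genes, 4 are in the gene list of this pathway: the subunits Relb and Nfkb2, the inhibitor Tnfaip3 and the adhesion molecule Icam1, which binds leukocytes. The kinase Ikbke and the neutrophil chemokine Cxcl1 are grouped with them here, after their values were seen. All 6 rose, which is a description since the group was chosen among called genes. The called cytokine Il1f9, described below and not in this group, fell.

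Promoters of 3 of these genes held the letters GGG, any 2 bases and then TTTCC, a form of the NF-kB site, on either strand within 250 bases before a start site. They are shown because their genes moved together; the sequences are RefSeq's on GRCm38.p6, written 5′ to 3′ along the gene, with the match in capitals. In Tnfaip3 (chr10:19015411-19015660, minus strand) the match lay at −12 to −3 from the start, in Cxcl1 (chr5:90890995-90891244, plus strand) matches lay at −89 to −80 and −71 to −62, and in Nfkb2 (chr19:46304487-46304736, plus strand) the match lay at −11 to −2. Each window shown is that of start site 1. Start site 2 of Tnfaip3 and of Nfkb2 had no match, and start site 3 of Nfkb2 had 1, at −225 to −216.
Tnfaip3: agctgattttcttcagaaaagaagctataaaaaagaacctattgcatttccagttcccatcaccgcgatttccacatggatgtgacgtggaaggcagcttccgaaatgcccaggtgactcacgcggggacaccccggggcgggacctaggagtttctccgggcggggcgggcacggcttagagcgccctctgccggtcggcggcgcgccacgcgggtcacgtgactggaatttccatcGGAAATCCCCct
Cxcl1: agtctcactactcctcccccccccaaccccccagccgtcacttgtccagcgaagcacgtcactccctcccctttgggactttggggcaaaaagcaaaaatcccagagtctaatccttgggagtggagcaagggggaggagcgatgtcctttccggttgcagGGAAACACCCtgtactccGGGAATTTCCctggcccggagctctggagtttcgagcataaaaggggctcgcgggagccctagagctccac
Nfkb2: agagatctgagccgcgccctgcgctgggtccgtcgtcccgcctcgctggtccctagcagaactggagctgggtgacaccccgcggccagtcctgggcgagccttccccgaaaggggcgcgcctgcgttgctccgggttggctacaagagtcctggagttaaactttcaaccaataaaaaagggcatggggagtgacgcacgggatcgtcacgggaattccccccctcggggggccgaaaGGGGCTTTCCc
Of the 63 genes, 47 had an entry in the table. The motif was found for 3 of 13 genes that rose (23.08%), for 1 of 34 that fell (Mest, 2.94%) and for 1.65% of all 27025 genes with an entry. A match is a description of letters and shows no binding. Icam1 had an entry and no match in the window.

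Tnfaip3 (ENSMUSG00000019850.11) was at 8.44, 7.55 and 13.3 CPM in controls and at 60.1, 27.9 and 31.9 CPM after depletion, and Cxcl1 at 48.3, 46.0 and 76.3 CPM against 265, 124 and 150 CPM. For both, depletion 6 was the highest library and the other depletion libraries lay about equally above the controls. The log2 changes were 2.03 (SE 0.32, adjusted p = 0.0355) and 1.66 (SE 0.28, adjusted p = 0.0433). Relb was at 3.24, 2.29 and 3.62 CPM in controls and at 9.99, 8.28 and 7.37 CPM after depletion, a log2 difference of 1.49 (SE 0.27, edgeR adjusted p = 0.045). Nfkb2, its partner, was at 10.5, 9.07 and 13.2 CPM against 21.5, 18.5 and 20.4 CPM, a log2 change of 0.88 (SE 0.15, adjusted p = 0.0427). The 3 depletion libraries were close to each other in both subunits. Icam1 (21.1, 20.4 and 23.6 CPM against 53.9, 42.2 and 37.0 CPM) rose by 1.03 (SE 0.13, adjusted p = 0.0155). Ikbke (42.2, 40.1 and 42.2 CPM against 64.7, 69.4 and 85.3 CPM), a kinase of the interferon and NF-kB pathways, rose by 0.82 (SE 0.12, adjusted p = 0.0195), and here depletion 10 was highest. All 6 calls ended without control 7 (adjusted p = 0.0835 to 0.186), without control 8 (0.077 to 0.147) and without depletion 9 (0.0561 to 0.115). Those of Tnfaip3, Cxcl1, Relb and Nfkb2 ended without depletion 6 (0.0594 to 0.128), and those of Relb and Ikbke without control 13 (0.0679 and 0.0535). None of the 6 genes passed in the fit of the 6 libraries alone (edgeR adjusted p = 0.0579 to 0.105). Relb also did not pass with limma-voom (adjusted p = 0.0604).

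Over the NF-kB pathway list, 4 of 27 genes tested rose and none fell, 11 were above and none below the controls, and the median log2 difference was 0.26 (−0.01 over all genes tested). By role, 2 of 5 subunits, 1 of 9 inhibitors, 0 of 10 kinases and adaptors and 1 of 3 adhesion targets passed. Ikbke and Cxcl1 are not in this list. The inhibitors had a median of 0.71 (0.46 without depletion 6), with 6 of 9 above the controls. Receptors and ligands did not follow as a group: none of 17 passed, the median was −0.11, and the death ligand Tnfsf10 (9.40, 8.24 and 8.85 CPM against 2.85, 4.66 and 4.04 CPM) and the cytokine Il1a (4.95, 5.41 and 4.95 CPM against 1.78, 3.19 and 2.93 CPM) were lower in every depletion library, while the receptor Il1r1 was higher (37.1, 47.3 and 59.7 CPM against 139, 78.9 and 63.7 CPM). Their adjusted p-values were 0.058, 0.0798 and 0.127. Il1f9, an interleukin-1 family cytokine now called IL-36 gamma, fell (log2 −3.32, SE 0.62, adjusted p = 0.0498) from very low levels of 0.427, 0.965 and 0.55 CPM to 0.07, 0.086 and 0.031 CPM, and its call was kept without depletion 10 alone (0.0494; 0.0704 to 0.169 without any other library).

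Of 24 chemokines, Cxcl1 alone passed. The group was mixed, with a median of 0.10 (−0.09 without depletion 10, 0.40 without depletion 6), 5 above and 4 below the controls. Cxcl2, a close relative of Cxcl1, was at 0.356, 0.138 and 0.318 CPM against 1.36, 0.92 and 0.802 CPM, and the macrophage chemokine Ccl6 at 5.55, 5.90 and 5.27 CPM against 26.3, 16.4 and 14.5 CPM; the T-cell chemokine Cxcl9, which interferon-gamma induces, went the other way (17.1, 18.8 and 31.6 CPM against 1.01, 6.35 and 7.90 CPM). None of these 3 passed (adjusted p = 0.0715, 0.0696 and 0.0956). Acute phase proteins, which hepatocytes secrete in inflammation, had a median log2 difference of 0.34 with 9 of 28 above and none below the controls, none past the test. Lbp, which binds bacterial lipopolysaccharide, was at 44.9, 54.8 and 101 CPM against 392, 124 and 160 CPM. Orm1 was at 354, 360 and 490 CPM against 1393, 687 and 604 CPM, and the iron-scavenging Lcn2 at 384, 516 and 304 CPM against 1710, 992 and 991 CPM. In all 3, depletion 6 was the highest library.

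Markers of leukocytes that could add such transcripts moved unevenly. Of 11 neutrophil markers, 6 were above the controls and none passed; their summed level was 313.8 to 523.2 CPM in controls and 1005 to 1724 CPM after depletion, nearly all of it Lcn2. Without Lcn2, left out after its values were seen, the sum was 6.811 to 9.403 CPM against 12.99 to 14.13 CPM. S100a9, an abundant neutrophil protein, was at 1.64, 1.38 and 1.71 CPM against 1.78, 3.22 and 3.76 CPM, and the protease Mmp9 at 0.427, 0.80 and 1.01 CPM against 6.37, 3.02 and 1.11 CPM. Recruited macrophage and monocyte markers had a median of 0.04 over 18 genes (sum 491.1 to 826.0 CPM against 376.2 to 493.3 CPM). Of these, 4 were above and 5 below the controls. Without Spp1, left out after its values were seen and also in the bile duct list, the sum was 314.3 to 361.5 CPM in controls and higher in every depletion library, at 365.2 to 403.1 CPM. The 17 genes left were mixed, with 4 above and 4 below the controls. In this list, Itgam (2.74, 3.20 and 2.46 CPM against 7.45, 4.28 and 4.23 CPM) and Cd14 (16.7, 19.6 and 20.6 CPM against 42.9, 28.9 and 48.8 CPM) were above the controls and not past the test. Kupffer cell markers had a median of −0.27 over 12 genes (−0.10 without depletion 6, −0.42 without depletion 10, sum 344.7 to 364.8 CPM against 245.4 to 349.3 CPM), and within them the scavenger receptor Marco was higher in every depletion library (6.05, 7.69 and 6.86 CPM against 22.01, 20.8 and 12.1 CPM, adjusted p = 0.168). The part of these cells in the inflammatory results was not tested.

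**Figure D2:**
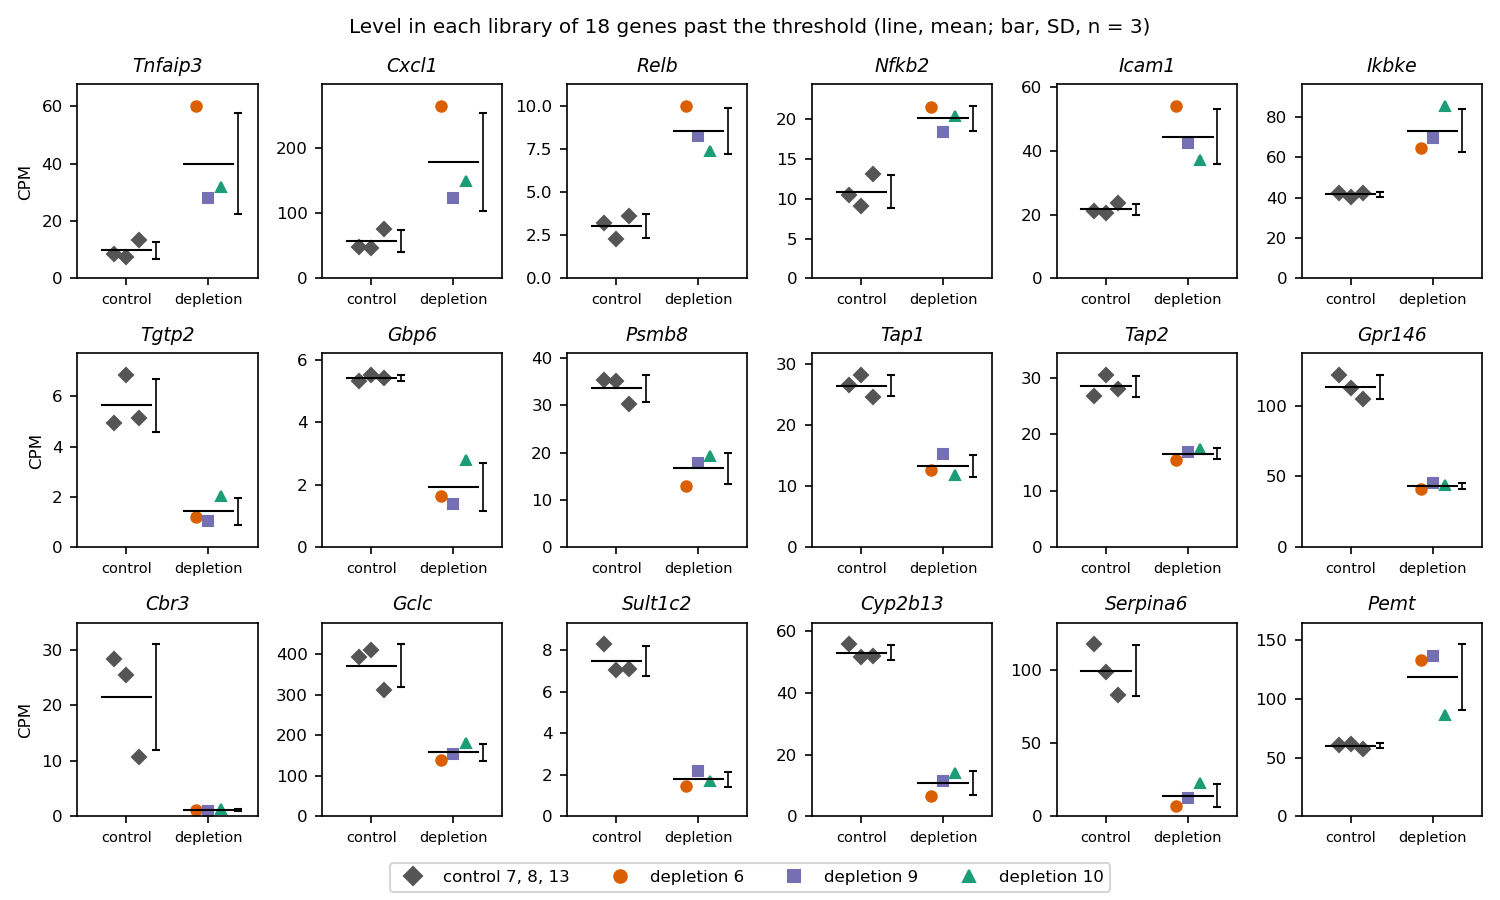
Level (CPM, linear axes from 0) of 18 genes past the threshold in each control library (grey diamonds) and in depletion 6, 9 and 10 (circle, square and triangle), with the group mean as a line and the SD (n = 3) as a bar. In every panel the depletion libraries lie on 1 side of the controls; depletion 6 is the highest point for Tnfaip3 and Cxcl1, at 60.1 and 265 CPM.

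Interferons induce large GTPases that attack pathogens inside cells, together with the machinery that loads peptides on MHC class I for CD8 T cells: the immunoproteasome subunits (Psmb8, Psmb9, Psmb10) cut proteins and the transporter Tap1-Tap2 carries the peptides into the endoplasmic reticulum. In these tumours 2 GTPases and 3 members of that machinery fell, and most other interferon-response genes were lower in every depletion library. Tgtp2, a p47-type GTPase, was at 4.95, 6.84 and 5.12 CPM in controls and at 1.22, 1.03 and 2.04 CPM after depletion (log2 −1.98, SE 0.28, adjusted p = 0.0195). Gbp6, a guanylate-binding protein, was at 5.34, 5.51 and 5.41 CPM against 1.64, 1.38 and 2.81 CPM (log2 −1.48, SE 0.26, adjusted p = 0.0435). Both belong to families of near-identical genes whose reads may have been split by the authors' counting. Of the 13 GTPases tested, 2 fell, 11 lay below the controls and none above; Gbp9 (14.6, 18.97 and 15.1 CPM against 8.46, 10.7 and 9.65 CPM, adjusted p = 0.058) and Gbp3 (10.4, 12.1 and 8.85 CPM against 3.24, 3.94 and 6.48 CPM, adjusted p = 0.0715) were the next nearest to passing.

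The promoter of Tgtp2 (chr11:49064213-49064462, minus strand, RefSeq, GRCm38.p6) is shown for its match, in capitals, to GAAA, any 2 bases and then GAAA, a form of the interferon-stimulated response element, at −70 to −61 from the start.
Tgtp2: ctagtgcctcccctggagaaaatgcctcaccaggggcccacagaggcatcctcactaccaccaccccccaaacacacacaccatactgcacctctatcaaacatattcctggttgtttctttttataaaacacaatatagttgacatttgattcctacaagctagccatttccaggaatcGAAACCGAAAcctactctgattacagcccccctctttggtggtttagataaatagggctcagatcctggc
The letters were found on either strand in 2 of the 34 genes that fell and had an entry (Plk2 and Tgtp2, 5.88%), in none of 13 that rose and in 3.46% of all genes with an entry, so their share among the genes that fell was near the background.

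Over the whole interferon list, 2 of 39 genes fell, none rose, 32 were below and none above the controls (16.0% and 11.5% of all genes), and the median log2 difference was −0.73. Depletion 6, 9 and 10 had list medians of −0.97, −0.71 and −0.49 relative to the control mean. Without depletion 6 the median was −0.60, and with any other library left out it lay between −0.87 and −0.63. Antiviral effectors (16 genes) had a median of −0.92, sensors and transcription factors (10 genes) −0.54.

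The MHC genes for peptide supply sit next to each other on chromosome 17. Tap1 (34187553 to 34197225, plus strand) was at 26.5, 28.2 and 24.7 CPM in controls and at 12.7, 15.3 and 11.9 CPM after depletion, Psmb8 (34197721 to 34201454) at 35.4, 35.1 and 30.4 CPM against 13.1, 17.8 and 19.3 CPM, and Tap2 (34203527 to 34216321) at 26.8, 30.5 and 28.1 CPM against 15.5, 16.9 and 17.3 CPM. In each, the groups were well apart and the depletion libraries were close together. They fell by 0.99 (SE 0.15, adjusted p = 0.0313), 1.01 (SE 0.18, adjusted p = 0.045) and 0.78 (SE 0.13, adjusted p = 0.0389) on the log2 scale. Psmb9 starts on the other strand beside Tap1, so that their promoter windows in the RefSeq table share 275 bases; it was at 15.8, 17.2 and 9.84 CPM against 3.59, 7.64 and 6.11 CPM (log2 −1.30, SE 0.28) and did not pass (adjusted p = 0.0646). Of 19 genes of the class I list, 3 fell and 11 were below the controls, none above, with a median of −0.52. All 8 class I chain genes tested had a negative difference (median −0.57, 6 below the controls), none past the test. Of the 5 calls for interferon and class I genes, all ended without control 7 (adjusted p = 0.0835 to 0.186), control 8 (0.0893 to 0.14), depletion 6 (0.0904 to 0.136) and depletion 9 (0.0593 to 0.115), and those of Gbp6, Psmb8 and Tap2 without control 13 (0.0679 to 0.0753). In the fit of the 6 libraries alone, Tap1 and Tap2 passed (edgeR adjusted p = 0.0495 for each). Tgtp2, Gbp6 and Psmb8 did not pass in that fit (0.0634, 0.0847 and 0.072). Gbp6 also did not pass with limma-voom (adjusted p = 0.0798).

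MHC class II, which antigen-presenting cells use to show peptides to CD4 T cells, was lower in depletion libraries without passing the test: 7 of 9 genes were below the controls and the median was −1.28. Cd74, the invariant chain, was at 36.2, 57.6 and 58.6 CPM against 8.29, 27.1 and 27.4 CPM, and the class II chain H2-Aa at 12.5, 20.2 and 20.5 CPM against 2.09, 6.38 and 8.08 CPM (adjusted p = 0.12 and 0.0737). Markers of lymphocytes were low in every library. T-cell markers summed to 25.21 to 28.32 CPM in controls and 11.49 to 24.32 CPM after depletion (18 genes, median −1.33, 7 below), with Cd4 at 0.605, 0.579 and 0.781 CPM against 0.104, 0.259 and 0.123 CPM. B-cell markers summed to 12.04 to 16.02 CPM against 2.298 to 9.315 CPM (12 genes, median −1.25, −2.53 without depletion 10), with Cd79a at 0.641, 1.38 and 1.01 CPM against 0.244, 0.029 and 0.524 CPM. Plasma cell markers had a median of −0.99 over 14 genes (547.1 to 643.4 CPM against 402.4 to 502.8 CPM), and natural killer and cytotoxic markers −1.08 over 9 genes (4.094 to 6.921 CPM against 2.403 to 3.701 CPM). Dendritic cell markers had a median of −0.89 over 11 genes, −0.45 without control 13 and −0.50 without depletion 6 (92.01 to 93.7 CPM against 33.64 to 70.54 CPM). Most of their sum was Bst2, which is also an interferon-induced gene; without it, left out after its values were seen, the sum was 17.55 to 19.33 CPM against 12.15 to 15.85 CPM. None of these markers passed the test, and their part in the lower interferon and class I genes was not tested.

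**Figure D3:**
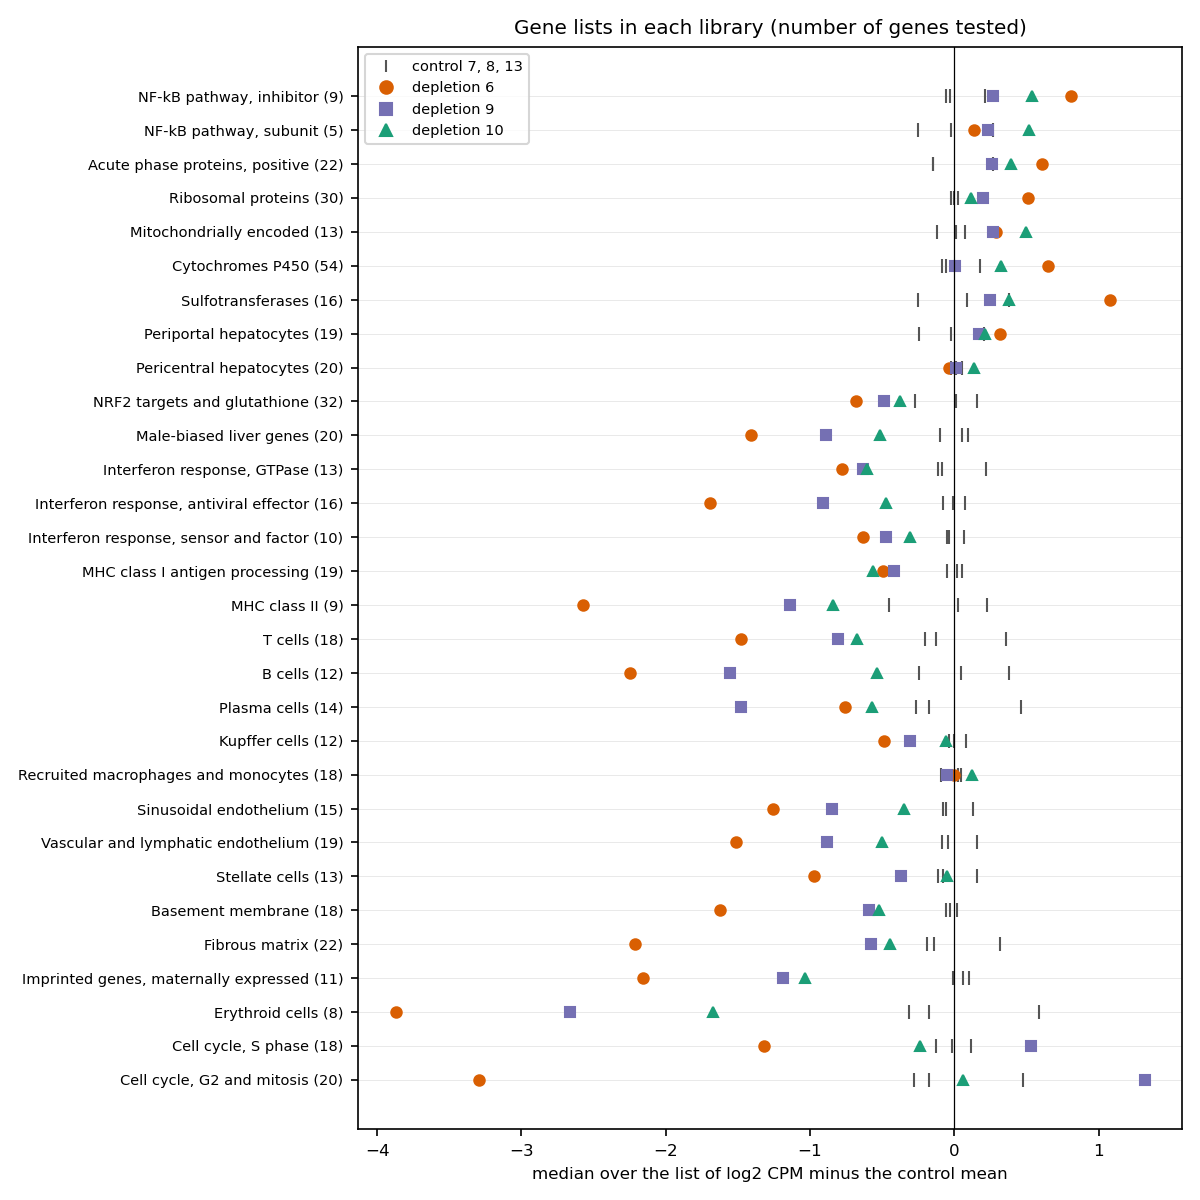
Median over each gene list of the log2 CPM minus the control mean, in each control (grey ticks) and in depletion 6, 9 and 10 (circle, square and triangle); the number of genes tested stands beside each list. Depletion 6 lies lowest for most lists of immune, vessel and matrix genes, for example at −2.21 for fibrous matrix, and the depletion libraries spread from −3.30 to 1.32 for genes of G2 and mitosis.

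Glutathione is the main antioxidant of hepatocytes, and the transcription factor NRF2 induces the enzymes that make and use it. Gclc, the catalytic subunit of the rate-limiting enzyme of glutathione synthesis, was at 394, 410 and 310 CPM in controls and at 139, 153 and 182 CPM after depletion, a log2 difference of −1.23 (SE 0.19, edgeR adjusted p = 0.0313). Cbr3, a carbonyl reductase, had the largest change of the 63 genes: it was at 28.4, 25.5 and 10.7 CPM in controls and at 1.15, 1.01 and 1.33 CPM after depletion (log2 −4.21, SE 0.55, adjusted p = 0.0195). The depletion libraries were almost equal, while control 13 lay well under the other controls. These were the 2 of 32 NRF2 and glutathione genes that passed; 17 of 32 were below and none above the controls, with a median of −0.54. The glutathione transferases Gsta1 (76.3, 52.5 and 36.3 CPM against 2.72, 8.91 and 9.50 CPM) and Gstm3 (224, 136 and 115 CPM against 17.0, 34.1 and 40.1 CPM) had larger differences (−2.96 and −2.38) that did not pass (adjusted p = 0.0589 and 0.0676). In both, control 7 was the highest and control 13 the lowest control. The antioxidant element (TGAC, any 3 bases and then GC) was found upstream of 4 of 34 genes that fell (11.76%: Adamtsl5, C77080, Hdac11 and Lrp3), near its share of 11.52% of all genes with an entry, and in none of 13 that rose. The calls of Cbr3 and Gclc ended without control 7 (adjusted p = 0.0835 and 0.169), control 8 (0.0769 and 0.119), depletion 6 (0.0914 and 0.0936) or depletion 9 (0.097 and 0.115), and that of Cbr3 ended with limma-voom (0.0741).

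Other enzymes of drug and steroid metabolism moved in both directions. Among cytochromes P450, which oxidise drugs and steroids, Cyp2b13 alone passed, at 55.9, 51.6 and 52.0 CPM in controls and 6.55, 11.4 and 14.2 CPM after depletion (log2 −2.31, SE 0.37, adjusted p = 0.0382). Its call was kept without depletion 10 (0.0239) and ended without each of the other 5 libraries (0.0679 to 0.169) and without a filter on low counts (0.0534). Its near relative Cyp2b10, a classical target of the drug sensor CAR, lay above the controls (6.48, 4.30 and 12.6 CPM against 187, 36.8 and 32.3 CPM, adjusted p = 0.128), and reads of the Cyp2b genes can be split between copies. Of 54 P450 genes, 14 were above and 7 below the controls, with a median of 0.26 (0.17 without depletion 6, 0.42 without control 13 and 0.47 without depletion 9). Some Cyp2c genes also had large differences: Cyp2c29 was at 67.8, 94.2 and 113 CPM against 1412, 679 and 371 CPM, Cyp2c37 at 42.2, 41.1 and 67.9 CPM against 791, 324 and 243 CPM and Cyp2c50 at 59.0, 56.6 and 68.8 CPM against 519, 319 and 209 CPM. Depletion 6 was highest and depletion 10 lowest of the depletion libraries in all 3, and none passed (adjusted p = 0.058, 0.0737 and 0.0589).

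Sulfotransferases add sulfate to steroids and drugs. While Sult1c2 fell, the oestrogen sulfotransferase Sult1e1 was at 5.66, 16.4 and 11.1 CPM in controls and at 470, 242 and 113 CPM after depletion (log2 4.63, SE 0.93), and Sult2a2, of the hydroxysteroid type, at 30.5, 31.6 and 20.0 CPM against 118, 71.4 and 56.5 CPM. Neither passed (adjusted p = 0.0591 and 0.17), and the groups did not overlap in either. Of 16 sulfotransferases tested, 6 were above and 3 below the controls; the median was 0.55, and 0.05 without depletion 6. Liver genes that are higher in male mice, which pulsed growth hormone maintains, were lower: 11 of 20 were below the controls and 1 above (median −1.05), none past the test, with the urinary protein Mup3 at 126, 81.9 and 31.2 CPM against 0.975, 7.10 and 6.26 CPM and Selenbp2 at 51.6, 82.0 and 42.4 CPM against 3.69, 17.2 and 11.8 CPM. The growth hormone receptor Ghr was at 185, 153 and 217 CPM against 58.4, 91.8 and 115 CPM (adjusted p = 0.0798). Female-biased genes had a median of 0.56 over 23 genes (0.30 without depletion 6, 0.84 without depletion 9 and 1.04 without control 13), with 5 above and 6 below the controls, and 1 of them, Cyp2b13, fell. The summed level was lower in every depletion library for both lists. It was 4268 to 4777 CPM against 1970 to 3012 CPM for female-biased genes and 8541 to 11150 CPM against 3314 to 7773 CPM for male-biased genes.

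Genes of hepatocyte secretion and of lipid and sugar handling were among those called. Serpina6, the corticosteroid-binding globulin of plasma, was at 118, 98.4 and 82.7 CPM in controls and at 7.28, 12.4 and 23.1 CPM after depletion (log2 −2.80, SE 0.47, adjusted p = 0.0433), the 1 gene past the test among 32 of hepatocyte function, whose median was −0.16 with 8 below and none above the controls. Inhbe, the activin E subunit that hepatocytes secrete, was nearly constant within groups, at 5.45, 5.29 and 5.50 CPM against 1.43, 1.75 and 2.07 CPM (log2 −1.62, SE 0.22, adjusted p = 0.0155). Ppp1r3b, which brings a phosphatase to glycogen, was at 514, 463 and 410 CPM against 192, 272 and 254 CPM and fell by 0.95. Pemt, which makes phosphatidylcholine by methylation, rose (61.0, 62.0 and 57.6 CPM against 133, 137 and 86.2 CPM, log2 0.98), as did the lipid transporters Abca5 (19.2, 19.2 and 20.2 CPM against 38.5, 36.5 and 30.8 CPM, log2 0.85) and Abca7 (5.91, 6.20 and 5.96 CPM against 11.8, 9.37 and 10.1 CPM, log2 0.79). Erlin1, an endoplasmic reticulum protein that takes part in the degradation of membrane proteins, fell by 0.84 (82.4, 88.4 and 73.8 CPM against 33.6, 47.4 and 55.4 CPM). The edgeR adjusted p-values of these last 5 genes lay between 0.0313 and 0.0487.

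Slc11a2, the iron transporter DMT1, was at 22.7, 21.04 and 22.5 CPM in controls and at 40.0, 40.6 and 45.7 CPM after depletion, with little spread in either group. It rose by 0.93 (SE 0.11, adjusted p = 0.00963), and its call ended only without control 7 (0.0791) or control 8 (0.0699). The zinc and iron transporter Slc39a14 was also above the controls (294, 324 and 330 CPM against 516, 436 and 421 CPM) and did not pass (adjusted p = 0.119). Avpr1a, a vasopressin receptor of pericentral hepatocytes, was at 9.54, 9.57 and 9.52 CPM against 26.2, 14.8 and 22.2 CPM and rose by 1.14 (SE 0.20, adjusted p = 0.045). It was the 1 gene of 20 pericentral genes to pass; their median was 0.15, with 3 above and 3 below. The calls of Serpina6, Ppp1r3b, Pemt, Abca5, Abca7 and Erlin1 were kept without depletion 10 alone (without any other library 0.0593 to 0.186), and that of Serpina6 also ended without a filter on low counts (0.0689). That of Inhbe was kept without control 13 or depletion 10 (0.0669 to 0.0837 otherwise), and that of Avpr1a without depletion 9 or 10 (0.0889 to 0.186 otherwise).

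Periportal genes of the urea cycle and of methionine metabolism were higher in every depletion library without passing. The urea cycle enzymes Cps1 (3651, 3136 and 5077 CPM against 7450, 6820 and 6121 CPM), Ass1 (2145, 1667 and 3048 CPM against 4059, 4010 and 3702 CPM) and Asl (204, 163 and 322 CPM against 858, 480 and 436 CPM) had log2 differences of 0.78, 0.78 and 1.36. Mat1a, which makes the methyl donor S-adenosylmethionine, was at 2229, 1734 and 3084 CPM against 8823, 4516 and 3616 CPM. In each of these genes control 13 was the highest control and depletion 6 the highest library. Their adjusted p-values were 0.17, 0.224, 0.0875 and 0.0908. Of 19 periportal genes, 6 were above and none below the controls (median 0.25, 0.16 without control 8 and 0.13 without depletion 10). The pericentral ornithine aminotransferase Oat was at 28.4, 34.9 and 41.4 CPM against 271, 194 and 75.0 CPM (adjusted p = 0.0707), and Rgn (regucalcin), also in the pericentral list, at 106, 108 and 97.97 CPM against 6.20, 20.4 and 46.3 CPM (adjusted p = 0.0979), so that list held large differences of either sign.

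Ppargc1a, a coactivator of gluconeogenic and mitochondrial genes, was at 15.1, 17.2 and 23.6 CPM against 44.8, 40.4 and 35.4 CPM, a difference that did not pass the test (log2 1.11, SE 0.21, adjusted p = 0.0503). The insulin receptor substrate Irs2 was at 11.1, 4.88 and 16.3 CPM against 63.9, 26.5 and 36.4 CPM and the insulin-like growth factor binding protein Igfbp1 at 488, 809 and 926 CPM against 3286, 2353 and 2500 CPM. Neither passed (adjusted p = 0.0715 and 0.0809). The fatty acid binding protein Fabp1 lay the other way, at 577, 626 and 441 CPM against 14.1, 72.7 and 190 CPM (adjusted p = 0.105). Of 26 genes of fatty acid oxidation, none passed and the median was −0.13.

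The next 6 genes, all lower, are in none of the gene lists and were grouped here after their values were seen. Mmrn2, a matrix protein that endothelial cells lay down, was at 20.3, 22.9 and 21.5 CPM in controls and at 5.75, 8.71 and 12.0 CPM after depletion (log2 −1.29, SE 0.23, adjusted p = 0.045). Mef2c, a transcription factor of endothelium and muscle, was at 7.16, 7.45 and 5.87 CPM against 2.23, 2.82 and 3.46 CPM (log2 −1.27, SE 0.23, adjusted p = 0.0481), and the small GTPase-like protein Gimap6, of lymphocytes and endothelium, at 12.7, 10.7 and 10.8 CPM against 4.60, 6.47 and 6.72 CPM (log2 −0.95, SE 0.17, adjusted p = 0.045). In each, depletion 6 was lowest and no libraries overlapped. The inositol trisphosphate kinase Itpkb (log2 −1.09), the GTPase-activating protein Arhgap10 (−1.20) and Filip1 (−1.68), a filamin-binding protein, fell as well (adjusted p = 0.0368, 0.0389 and 0.045). These 6 calls were kept without depletion 10 alone (0.0679 to 0.186 without any other library).

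Of 15 sinusoidal endothelial markers 10 were below and 1 above the controls (median −0.79), and of 19 vascular and lymphatic markers 13 were below and none above (median −0.90); none of the listed markers passed. The vascular receptor Tie1 (14.0, 14.5 and 17.3 CPM against 5.29, 5.69 and 9.22 CPM, adjusted p = 0.0537), the cadherin Cdh5 (45.3, 52.9 and 46.4 CPM against 15.0, 24.3 and 29.5 CPM, adjusted p = 0.0777) and the sinusoidal receptor Lyve1 (34.4, 38.1 and 29.3 CPM against 10.7, 11.1 and 20.4 CPM, adjusted p = 0.0715) had no overlap between groups. The summed sinusoidal markers were at 638.5 to 746.3 CPM in controls and 265.5 to 504.8 CPM after depletion, and the vascular ones at 400.1 to 438.9 CPM against 292.4 to 333.1 CPM. Without depletion 6 their medians were −0.59 and −0.71. Genes of the basement membrane under vessels (18 genes, median −0.80, 13 below, −0.52 without depletion 6) and of fibrous matrix (22 genes, median −0.89, 11 below, −0.53 without depletion 6) lay lower too. Hspg2, the core of perlecan, was at 65.5, 68.3 and 71.0 CPM against 14.4, 30.8 and 42.8 CPM, and the matrix glycoprotein Sparc at 107, 133 and 128 CPM against 13.7, 50.4 and 69.6 CPM (adjusted p = 0.0922 and 0.155). Stellate cell markers had a median of −0.52 over 13 genes, −0.27 without depletion 6 and −0.33 without control 13. Notch genes, which act between vessel cells and in duct cells, had a median of −0.94 over 19 genes (−0.58 without control 13) with 10 below the controls; Notch1 was at 40.8, 37.8 and 40.1 CPM against 28.2, 23.5 and 27.0 CPM (adjusted p = 0.058).

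Imprinted genes, read from 1 parental copy and often active in fetal liver and silent in the adult, included 1 gene that fell. Mest was at 8.62, 15.6 and 7.61 CPM in controls and at 0.766, 1.81 and 2.07 CPM after depletion (log2 −2.77, SE 0.45, adjusted p = 0.0382; kept without control 13 or depletion 10, 0.0936 to 0.142 otherwise). Of 23 imprinted genes tested, 12 were below and 2 above the controls, with a median of −0.77 (−0.41 without depletion 6, −0.42 without control 8). Among 11 maternally expressed genes 9 were below and 1 above (median −1.43), among them the fetal RNA H19 at 48.8, 18.5 and 36.9 CPM against 0.836, 8.62 and 3.02 CPM (adjusted p = 0.168). The 12 paternally expressed genes tested, Mest among them, did not share this: 3 were below and 1 above (median −0.175). Their summed level was 64.79 to 72.38 CPM in controls and 76.46 to 111.8 CPM after depletion. The zinc-finger gene Peg3 was 1 of the 2 imprinted genes above the controls, at 4.63, 10.1 and 9.69 CPM against 63.9, 31.3 and 21.9 CPM (log2 2.25, SE 0.50), and did not pass (adjusted p = 0.0715).

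Cell cycle genes did not move in 1 direction. Relative to the control mean, the median of 20 genes of G2 and mitosis was −3.30 in depletion 6, 1.32 in depletion 9 and 0.06 in depletion 10, and that of 18 S-phase genes −1.32, 0.53 and −0.24. The summed G2 and mitosis genes were at 77.86 to 130.7 CPM in controls and 9.158 to 229.6 CPM after depletion, so the depletion libraries held both the lowest and the highest level. None of 51 cell cycle genes passed, and the median over them was 0.02 with all libraries, 0.27 without depletion 6 and −0.76 without depletion 9. Among the called genes, Pimreg, a mitotic protein outside the list, fell from 0.748, 1.49 and 0.839 CPM to 0, 0.086 and 0.093 CPM (log2 −3.99, SE 0.74, adjusted p = 0.0481), and its call was kept without depletion 10 alone (0.0381; 0.0679 to 0.169 otherwise). Plk2, a stress-induced kinase and p53 target, fell (18.5, 13.6 and 17.8 CPM against 5.15, 7.53 and 7.59 CPM, log2 −1.29, SE 0.20, adjusted p = 0.0307; 0.0233 without depletion 10 and 0.0669 to 0.169 without any other library). Of 22 p53 targets it was the 1 that passed, and the median was −0.09.

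Cilia, the antenna-like organelles of bile duct cells and other epithelia, gave 2 called genes of 26 tested. Cys1 (cystin), a membrane protein of the primary cilium, was at 16.1, 15.1 and 11.5 CPM against 3.03, 4.25 and 5.74 CPM (log2 −1.71, SE 0.23, adjusted p = 0.0155), and Drc1, of the dynein regulatory complex of motile cilia, at 7.26, 11.4 and 6.39 CPM against 2.30, 2.18 and 2.75 CPM (log2 −1.79, SE 0.26, adjusted p = 0.0249). The list as a whole did not share this: its median was 0.18, 4 genes lay above and 3 below the controls, and Bbs2, of the complex that carries proteins into cilia, was higher (1.82, 2.01 and 2.60 CPM against 5.50, 3.28 and 3.58 CPM, adjusted p = 0.102). Both calls ended without control 7 (0.0835), control 8 (0.0769 and 0.0943) or depletion 9 (0.0669 and 0.108), and that of Drc1 without depletion 6 (0.0914).

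The other genes that rose were Dusp8, a phosphatase of MAP kinases (1.60, 1.60 and 1.71 CPM against 5.75, 11.0 and 3.76 CPM, log2 2.06), Fyb2, an adaptor protein of T-cell receptor signalling (10.2, 9.18 and 9.40 CPM against 53.5, 22.7 and 24.9 CPM, log2 1.81), Ccdc122 (log2 1.20), the small GTPase Rnd2 (1.02), Fam171b (0.90), the endocytic adaptor Epn2 (0.89), the translation initiation factor Eif1a (0.75) and Mars (0.48), a transfer RNA synthetase for methionine. Mars had the smallest change of the 63, at 34.3, 30.7 and 34.6 CPM against 46.2, 48.6 and 44.3 CPM. The other genes that fell were the calsyntenin Clstn2 (log2 −3.72), the kallikrein Klk1b4 (−2.41), Rcan2, a regulator of calcineurin (−2.32), the secreted protein Adamtsl5 (−2.12), the kinase Dclk3 (−1.39), Tmem14a (−1.23), Ttc39a (−1.04), Spats2l (−1.03), the membrane protein Gpr155 (−0.93), the receptor Lrp3 (−0.88), the centrosomal protein Nin (−0.86), the amino sugar deacetylase Amdhd2 (−0.83), the lysosomal galactosidase Glb1 (−0.79), the peptidase Pgpep1 (−0.74), Mfhas1 (−0.67), the amino acid transporter Slc36a1 (−0.61) and C77080 (−0.60). Klk1b4 belongs to a family of near-identical genes. Rcan2 was even within groups, at 3.10, 2.702 and 3.47 CPM against 0.627, 0.546 and 0.679 CPM, and so was Pgpep1, at 81.3, 78.1 and 79.9 CPM against 45.5, 45.0 and 52.6 CPM. The edgeR adjusted p-values of these 25 genes lay between 0.0155 and 0.0498, and each of the calls ended without at least 1 library.

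Many larger differences did not pass. Among genes with a difference beyond 1 on the log2 scale and no overlap, 372 were higher and 717 lower. The largest on the high side was Arg2, the mitochondrial arginase, at 0.32, 0.221 and 0.26 CPM in controls and 43.3, 3.28 and 1.05 CPM after depletion (log2 5.89, SE 1.39, adjusted p = 0.0779); depletion 6 alone carried most of it. Chil3, a chitinase-like protein of macrophages, was at 0.142, 0.772 and 0.26 CPM against 7.28, 3.88 and 2.19 CPM. On the low side, Car3, a carbonic anhydrase of hepatocytes, was at 94.8, 45.0 and 93.7 CPM against 0.731, 5.09 and 10.2 CPM, and the keratin Krt20 at 9.15, 8.19 and 4.34 CPM against 0.139, 0.69 and 1.39 CPM. In these last 4 genes depletion 6 was again the most distant library (adjusted p = 0.0696, 0.16, 0.058 and 0.058). Haemoglobin RNA was lower: Hbb-bt was at 3.42, 3.25 and 6.94 CPM against 0.035, 0.144 and 0.586 CPM, and 7 of 8 erythroid genes were below the controls (sum 48.34 to 90.85 CPM against 7.277 to 20.26 CPM). The part of blood left in the tissue in these values was not tested.

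The same ablation had been done in tumours of the N-Ras+AKT model, made with injected plasmids for an activated N-Ras (NRasV12) and for myr-AKT and a transposase, with 3 control and 3 depletion libraries taken 6 days after the last tamoxifen dose, under the same strain label. There 4026 genes passed (23.7%), 2185 higher (12.8%) and 1841 lower (10.8%), and Prom1 fell by 2.90 (adjusted p = 0.00953). The difference of the Prom1 effect between the models did not pass (log2 1.90, DEN+CCl4 minus N-Ras+AKT, adjusted p = 0.151). The models also differ in the days after tamoxifen, which cannot be told apart from the model.

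Of the 44 genes that fell in DEN+CCl4 tumours, 19 had a negative difference in N-Ras+AKT tumours; 3 fell there (Plk2, Drc1 and Amdhd2) and 8 rose. Of the 19 that rose, 5 had a positive difference there; 1 rose (Rnd2) and 5 fell. The opposite changes included Serpina6, which rose by 3.61 in N-Ras+AKT tumours (SE 0.48, adjusted p = 0.00334), Cyp2b13 (4.04), Dclk3 (1.53), Gbp6 (1.21), Tgtp2 (1.06), Rcan2 (1.02) and Gpr146 (0.78). On the other side Relb (−1.31), Nfkb2 (−0.89), Icam1 (−0.63), Fam171b (−0.49) and Slc11a2 (−0.33) fell there. Cxcl1 and Tnfaip3 had differences of −0.76 and −0.82 there that did not pass (adjusted p = 0.0695 and 0.0748). A test of the difference of the 2 effects passed for 49 of the 63 genes, against 11.6% of all genes tested; since the 63 were called on the DEN+CCl4 side of that difference, the count is a description. For the genes of peptide supply the N-Ras+AKT differences were near 0 (Tap1 0.06, Tap2 0.13, Psmb8 0.18), and the effects differed between models (log2 −1.05, −0.91 and −1.19, adjusted p = 0.014, 0.0151 and 0.0167). Among other named genes not past the test in DEN+CCl4 tumours, some passed in N-Ras+AKT tumours in the same direction. Cyp2c29, Cyp2c37, Cyp2c50, Sult2a2, Oat, Asl, Ass1, Cps1, Mat1a, Irs2 and Marco rose there, and H19 fell. The test of the difference passed for none of them (edgeR adjusted p = 0.301 to 0.99). Others passed there in the opposite direction: Car3, Cd79a, Fgf1, Gbp3, Ghr, Gstm3, Il1a and Tnfsf10 rose, and Cd14, Lcn2 and Peg3 fell.

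**Figure D4:**
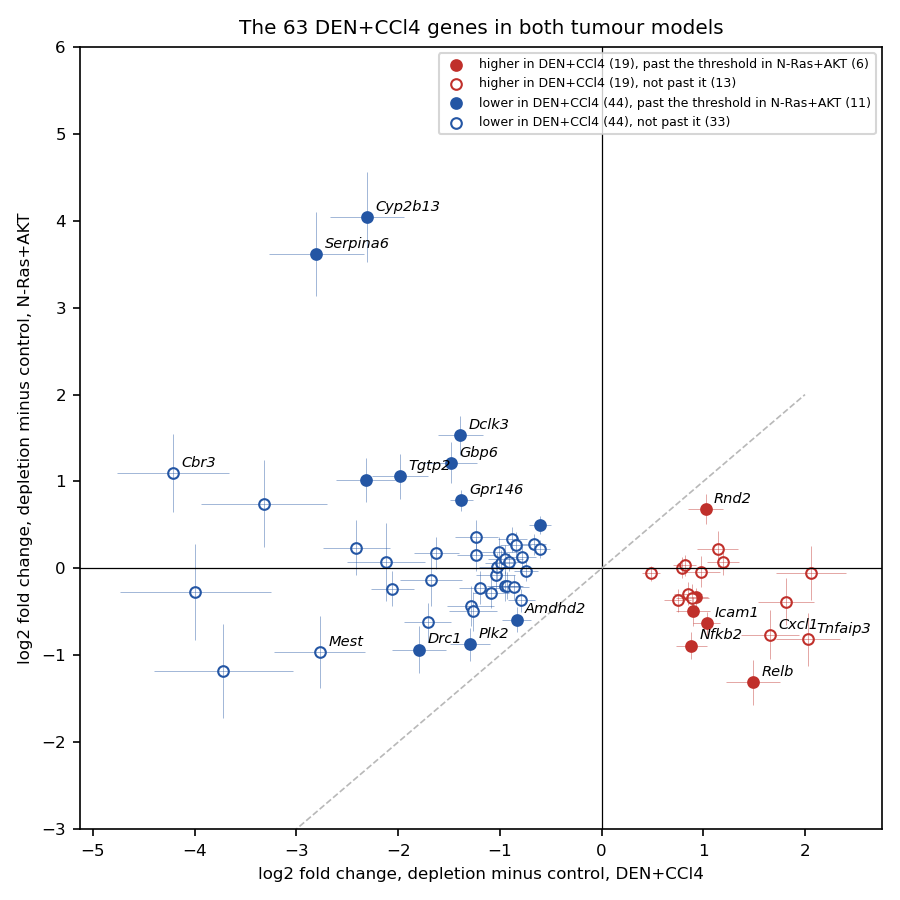
Log2 fold change (depletion minus control, bars are SE) of the 63 DEN+CCl4 genes in DEN+CCl4 tumours (horizontal) and in N-Ras+AKT tumours (vertical); filled points passed the test in N-Ras+AKT, open ones did not, and the dashed line marks equal changes. The points of Serpina6 and Cyp2b13 lie in the upper left, at 3.61 and 4.04 on the vertical axis, and 4 points passed in the same direction in both models.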

How the data were processed

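RNA was measured by poly-A RNA-seq of tumour tissue (KAPA mRNA HyperPrep, NovaSeq, per the labels' protocols). The values are raw counts per gene in whole numbers, deposited by the authors as 1 table for the 12 bulk libraries. RSEM 1.3.1, STAR 2.7.3, the build mm10 and Cell Ranger 3.0.2 are named, without a role, per the submitters' processing notes, so the counts may be rounded RSEM estimates in which reads of near-identical genes were split. Which annotation, filters and strand setting the authors used is not given in the sources used here. Symbols and positions came from GENCODE M21 (GRCm38), which matched 55154 of 55335 genes; the 181 others held 0.00642% of the counts.

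Groups came from the labels. All 12 libraries (31306617 to 48055812 counts; TMM factors 0.773 to 1.323) entered 1 edgeR 4.0.16 quasi-likelihood fit of 4 group means in R 4.3.3 (filterByExpr, robust, 8 residual degrees of freedom, biological coefficient of variation 0.238), since the N-Ras+AKT libraries add to the estimate of spread. Tests were two-sided, with Benjamini-Hochberg adjustment over 17013 genes and a threshold of 0.05. The fit was tested on simulated data. Standard errors are those implied by the test statistic. Levels are CPM on TMM-scaled library sizes, and log2 CPM for medians by library used a prior count of 2. No libraries were duplicates by a chi-square comparison of their counts. Alternatives were DESeq2 (1.42.0), its size factors, limma-voom (3.58.1), other filters, the 6 libraries alone, scaling without ribosomal and mitochondrial RNA, and each library left out.

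The rule for naming genes takes Prom1, all genes past the threshold, up to 4 further members with the smallest p in each of 58 gene lists, and large differences without overlap at a mean of at least 1 CPM: 279 genes, of which the text names the 63 past the threshold and 65 others, picked with their values known; the rest are not reported here. The comparison, the lists and this rule were chosen with earlier results of these data known. Promoters are RefSeq's, 250 bases before each start, for 27025 genes. Single-cell data were not analysed here.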

Additional observations from a re-analysis of the deposited data

Results flagged for a closer look

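The effect of Prom1 depletion differed between DEN+CCl4 and N-Ras+AKT tumours for 80 of the 128 genes that the text names, by the edgeR test of the difference itself (adjusted p under 0.05; 11.6% of all genes tested). Values are the log2 effect in DEN+CCl4 minus that in N-Ras+AKT. Of these 80, 49 are genes called in DEN+CCl4. The rest were named for a small p or a large difference in DEN+CCl4 and picked with their values known. All were thus chosen on 1 side of the difference, so the count beside 11.6% is a description. The days after tamoxifen and the make-up of the tumours also differ between the models and cannot be told apart from the effect.

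The difference was above 0 for 27 genes. NF-kB and inflammatory genes among them were Tnfaip3 (2.85), Relb (2.80), Cxcl1 (2.42), Nfkb2 (1.77), Icam1 (1.66), Ikbke (0.78), Lcn2 (3.20), Cd14 (2.37), Itgam (1.36) and Chil3 (4.54). Genes of metabolism and transport were Arg2 (7.26), Sult1e1 (6.36), Igfbp1 (2.61), Slc11a2 (1.26), Slc39a14 (0.96), Pemt (1.02), Abca5 (1.14) and Abca7 (0.78). The others were Peg3 (4.58), Fyb2 (2.19), Dusp8 (2.12), Bbs2 (1.50), Fam171b (1.39), Epn2 (1.23), Eif1a (1.12), Ccdc122 (1.12) and Mars (0.54).

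It was below 0 for 53 genes. Those of interferon response, antigen presentation and lymphocytes were Cd79a (−4.50), Gbp3 (−3.16), Cxcl9 (−3.06), Tgtp2 (−3.04), Cd4 (−2.72), Gbp6 (−2.69), H2-Aa (−2.64), Tnfsf10 (−2.39), Cd74 (−2.28), Psmb9 (−1.83), Il1a (−1.72), Il1f9 (−4.06), Psmb8 (−1.19), Tap1 (−1.05), Gimap6 (−1.05) and Tap2 (−0.90). Hepatocyte and detoxification genes were Serpina6 (−6.42), Cyp2b13 (−6.35), Car3 (−6.06), Cbr3 (−5.31), Gsta1 (−4.47), Mup3 (−4.05), Gstm3 (−4.03), Fabp1 (−3.65), Selenbp2 (−3.61), Rgn (−3.33), Gpr146 (−2.16), Ghr (−2.14), Sult1c2 (−1.82), Inhbe (−1.80), Gclc (−1.39) and Erlin1 (−1.11). The rest were Krt20 (−3.84), Pimreg (−3.72), Rcan2 (−3.34), Dclk3 (−2.92), Klk1b4 (−2.65), Adamtsl5 (−2.19), Tmem14a (−1.59), Filip1 (−1.54), Fabp2 (−1.30), Fgf1 (−1.23), Lrp3 (−1.21), C77080 (−1.10), Cys1 (−1.09), Spats2l (−1.04), Hdac11 (−0.99), Arhgap10 (−0.98), Ttc39a (−0.96), Mfhas1 (−0.94), Slc36a1 (−0.83), Pgpep1 (−0.71) and Bag3 (−0.55).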

How the results depend on the processing

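All 63 genes kept their direction in every alternative run, while the number of genes past the threshold moved with most settings. It was 63 (19 higher, 44 lower) as reported, 1066 (378, 688) with DESeq2, 171 (47, 124) without a filter on low counts and 21 (8, 13) with the 6 libraries alone. It stayed within 1.5 times with DESeq2 size factors (66), limma-voom (71), a minimum of 1 CPM in 3 libraries (85) and scaling without ribosomal and mitochondrial RNA (63). With 1 library left out it ran from 2 (without control 8) to 459 (without depletion 10), with 0 to 147 higher and 2 to 312 lower; the cause was not tested, beyond the loss of 1 sample. In those fits the group with 2 libraries is assumed to vary like the others. Of the 63 calls, 3, 2 and 20 remained when control 7, 8 or 13 was left out, and 9, 6 and all 63 when depletion 6, 9 or 10 was left out. The genes whose effect differed between the models numbered 1969, 2980 with DESeq2 and 933 to 2364 with 1 library left out. Of 753 combinations of a list and a setting, the median moved by more than the spread between replicates in 36; the mitochondrially encoded genes have no median where they are left out. The median log2 difference of all genes lay between −0.021 and 0.007 over the settings run. No paired analysis was possible because the control and depletion libraries of the DEN+CCl4 model share no replicate number. At totals of 31306617 or more counts a library, levels near 0.03 CPM, as for Clstn2 and Il1f9 after depletion, stand for about 1 count.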

Other observations

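Some gene groups had no place in the comparisons above. Of 30 coagulation and complement genes, which hepatocytes secrete, 12 were below and 1 above the controls, with a median log2 difference of −0.28 and none past the test; coagulation factor XI (F11) was at 183, 186 and 179 CPM in controls and at 74.0, 107 and 138 CPM after depletion (adjusted p = 0.0758). Heat shock chaperones had a median of −0.39 over 12 genes, 6 of them below the controls, with the co-chaperone Bag3 at 29.7, 29.5 and 25.9 CPM against 19.3, 22.9 and 22.8 CPM (adjusted p = 0.0873). Of 24 angiogenic factors and receptors 17 were below and 1 above (median −0.63), and the growth factor Fgf1 was at 56.9, 50.8 and 64.8 CPM against 32.5, 34.1 and 39.4 CPM (adjusted p = 0.0638). Cholesterol synthesis (22 genes, median 0.04), the unfolded protein and integrated stress response (22 genes, 0.11) and immediate early genes (22 genes, −0.00) showed medians near that of all genes, and none of their members passed.

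Markers of tissues other than liver were looked at as a check on the tissue. Of 6 such genes tested, 4 were below the controls and none above, and 1 of them, the kallikrein Klk1b4, passed. Their summed level was 59.75 to 73.16 CPM in controls and 19.39 to 44.35 CPM after depletion, and 8 further markers were at 0 in all 6 libraries. The intestinal fatty acid binding protein Fabp2 was at 9.36, 11.5 and 7.44 CPM against 2.54, 4.31 and 4.81 CPM (adjusted p = 0.058).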
